A study of Drosophila melanogaster with 30 samples.

Results

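Replication timing of male wing discs was set against that of female wing discs in larvae whose histone H4 can still be acetylated at lysine 16. The contrast is the HWT male timing value minus the HWT female timing value in each genomic window, after each profile was centred on the median of its autosome arms. A window was used where both profiles gave a value. This held for 13293 of the 13390 windows on chromosome arms 2L, 2R, 3L, 3R and X and on chromosome 4 that had a value in any timing table, while 96 windows had only a female value and 0 had only a male one. The joined windows comprised 2188 on the X arm, 9227 on the 4 autosome arms, 132 on chromosome 4, 130 in the pericentromeric block of the X and 1616 in the pericentromeric blocks of the autosomes. The blocks are the stretches next to each centromere. In coordinates of the dm6 build they begin at 22 Mb on 2L and on the X and at 23 Mb on 3L, and they end at 6 Mb on 2R and at 4 Mb on 3R.

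Cells copy their genome in a set order, with gene-rich, open chromatin copied early in S phase and compact heterochromatin around the centromeres copied late. Male flies carry a single X chromosome and raise its transcription by dosage compensation, in which the male-specific lethal (MSL) complex spreads along the X with the roX RNAs and its subunit Mof acetylates H4 at lysine 16. This mark loosens the packing of nucleosomes and is far more abundant on the male X than elsewhere in the genome. Chromosome 4 is a small autosome rich in heterochromatin that is bound along its length by its own protein, Pof.

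HWT male and HWT female larvae (Drosophila melanogaster, wandering larvae of the third instar) both lacked the endogenous histone gene cluster through ΔHisC on each second chromosome, 1 copy with twi-GAL4 and 1 with UAS-2xEYFP, which gives a fluorescent signal by which mutant animals were picked. Both carried a transgene with 12 wild-type histone repeats of 5 kb each, so HWT is a replacement and not the native cluster. H4K16R males and females carried the same construct with lysine 16 of H4 changed to arginine, H3K9R females carried it with lysine 9 of H3 changed to arginine, and yw females are labelled with no histone deletion. Nuclei of pooled discs were sorted by DNA content, each group gave 2 S-phase libraries and 1 G1 library, and timing is S-phase over G1 coverage on a log2 scale, so a high value marks early replication.

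The G1 DNA of the same sex is the divisor, so the single X of males does not by itself lower the ratio. The files give 1 value per group and window. The depth of single libraries is therefore unknown, no spread between replicates could be computed, and no test between the sexes was possible. Neighbouring windows span 100 kb and start every 10 kb, so they share reads and are not replicates. In place of a replicate error, differences between profiles of 1 sex are given beside the sex difference. The HWT females were deposited in a table with H4K16R and again in a table with H3K9R. These profiles of the same animals differed by a window SD of 0.017 over the autosome arms and 0.021 over the X arm, which holds no variation between animals. HWT females and yw females differed by a window SD of 0.032 over the autosome arms and 0.032 over the X arm. For HWT males and H4K16R males it was 0.031 and 0.042. Both of these pairs also differ in genotype. The male table gave values for 204 windows of the Y chromosome and both female HWT tables for 0. RNA levels per library were not used here, so the identity of the discs was not checked from marker genes.

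The X arm was timed earlier in HWT males than in HWT females. Its median stood at 0.012 in HWT males and at -0.021 in HWT females, relative to the autosome arms of the same profile. The median of the window differences was 0.029 (log2), a ratio of 1.02, and the interquartile range of windows ran between 0.0022 and 0.056, with 77.1% of X arm windows above 0. Against yw females the X arm median was 0.0073, and that of the autosome arms -0.014. On the autosome arms the median of HWT males minus HWT females was -0.0061 and 43.7% of windows were above 0. The 4 arms ran from -0.013 on 2L to 0.0027 on 2R, with -0.0042 on 3L and -0.0083 on 3R. The X arm therefore stood 0.035 above the autosome arms, while the window SD of the sex difference was 0.042 on the X and 0.041 on the autosome arms, so the displacement is a small one spread over many windows.

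**Figure D1:**
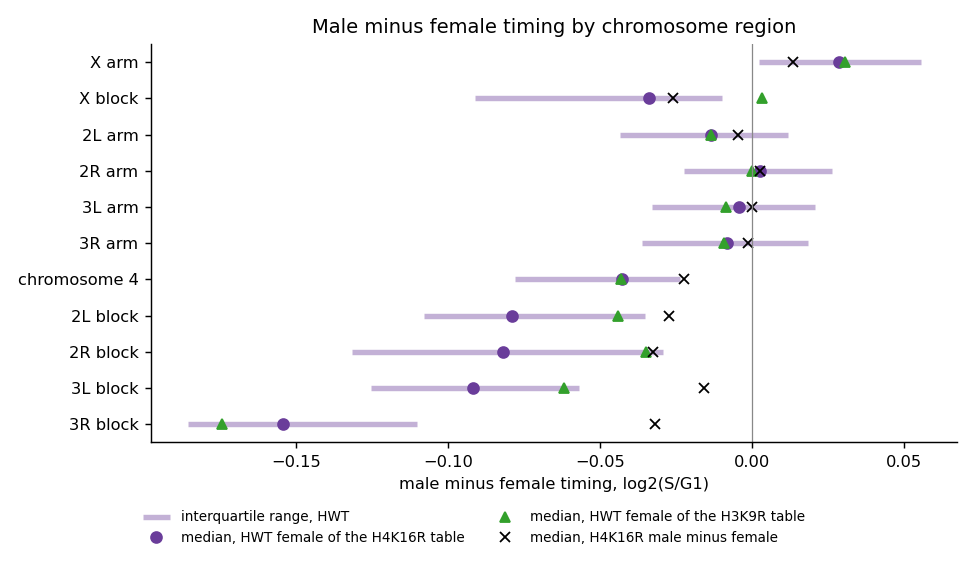
Male minus female timing, log2(S/G1), by chromosome region. Circles are medians over windows for HWT with the female profile of the H4K16R table and bars span the interquartile range of windows, triangles use the female HWT profile of the H3K9R table, and crosses are H4K16R males minus H4K16R females; the X arm lies right of 0 and the autosome blocks lie left of it, most of all the 3R block at -0.154.

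Both male profiles had an X arm level above that of every female profile. The X arm median, less the autosome-arm median of the same profile, was 0.012 in HWT males and 0.0001 in H4K16R males. It was -0.015 in H4K16R females, -0.016 in H3K9R females, -0.021 and -0.027 in the deposited copies of HWT females, and -0.0077 in yw females. The 2 male groups and the 4 female groups did not overlap, and an exact two-sided permutation test of 2 groups against 4 cannot give a p below 0.0667. Each of the 10 pairings of a male with a female profile put the X of the male higher, by 0.0067 to 0.038, while the 10 pairings of female profiles with each other differed by 0.0022 to 0.015 in size, with HWT females counted in both copies. The HWT contrast, at 0.035, lies beyond this range, and the H4K16R contrast, at 0.014, lies within it. The X of HWT males was higher than that of H4K16R males by 0.016, more than the H4K16R sex contrast. The yw females stood closest to the males, and against them the HWT male X was higher by 0.021.

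**Figure D2:**
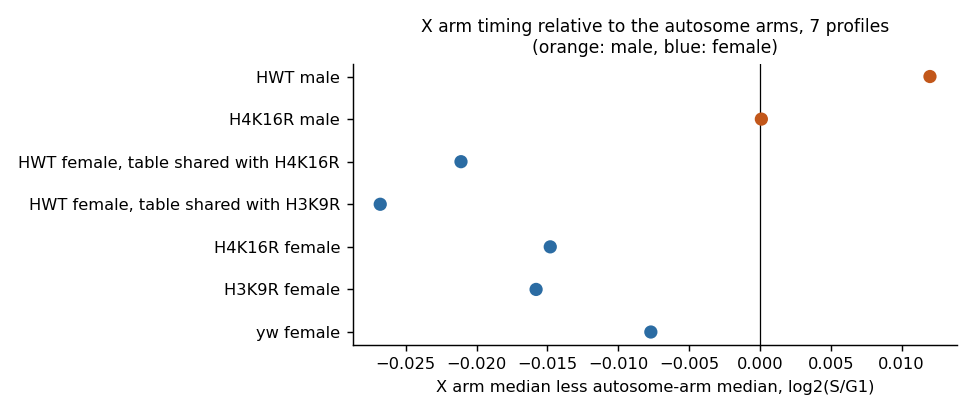
X arm median less autosome-arm median of log2(S/G1) in 7 deposited profiles, 1 point per profile, with males in orange and females in blue. HWT males lie at 0.012 and H4K16R males at 0.0001, and the female profiles lie between -0.027 and -0.0077.

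Windows that differed by at least 0.1 were counted as shifted. Over all 13293 windows, 87 (0.654%) were higher in HWT males and 1082 (8.14%) were lower. The X arm held 81 of the 87 higher windows, which is 3.7% of its windows against 0.065% (6 windows) on the autosome arms. Only 11 X arm windows (0.503%) were lower, against 210 on the autosome arms (2.28%). The 81 higher windows formed 24 runs of neighbouring windows, usually a few windows long, and lay in 18 of the 22 bins of 1 Mb. The autosome arms held 3 higher and 40 lower runs.

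Along the X arm, the median excess in males extended over most bins, though windows at both ends were lower in males (X:10001-110000 by -0.179 and X:21750001-21850000 by -0.204). The median difference was above 0 in 21 of 22 bins of 1 Mb. It was largest in the second bin from the telomere, where HWT males stood at 0.063 and HWT females at -0.0052 (difference 0.065), followed by the first bin at 0.051, bin 20 at 0.0501 and bin 3 at 0.047. Bin 15 was the exception, with -0.031 in HWT males and -0.028 in HWT females (difference -0.011). In bins 13 and 21 the median difference was above 0, but the level of HWT males lay below that of HWT females. Against the female HWT profile deposited with H3K9R, 22 of 22 bins were above 0, and against yw females 14 of 22. On the autosome arms, bins above 0 numbered 5 of 22 on 2L, 10 of 20 on 2R, 11 of 23 on 3L and 7 of 29 on 3R.

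**Figure D3:**
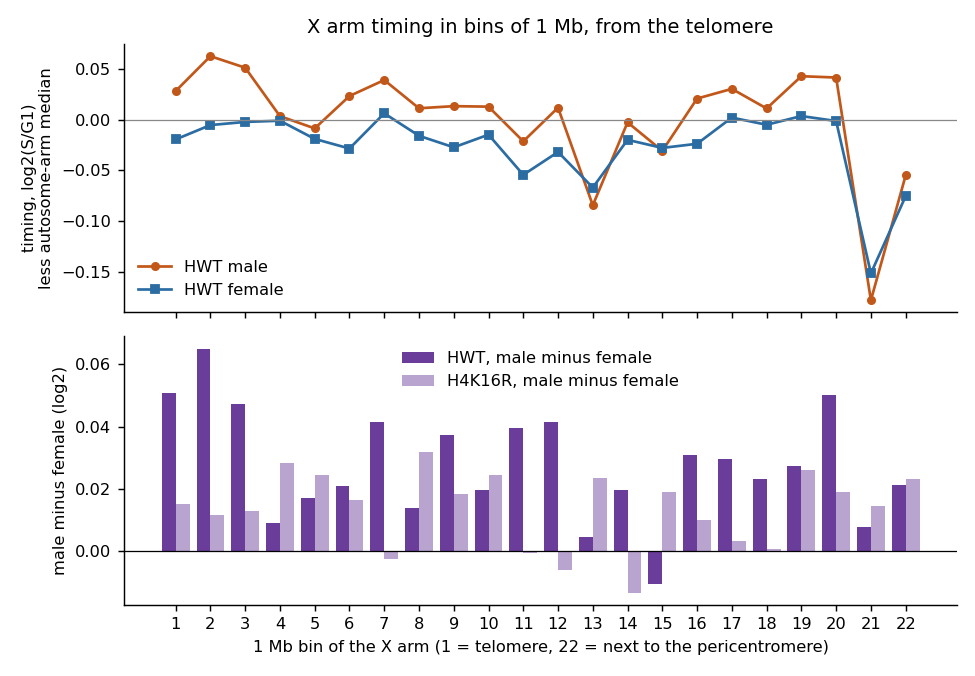
Median log2(S/G1) of X arm windows in 1 Mb bins counted from the telomere (upper panel, HWT males in orange and HWT females in blue) and the male minus female difference in HWT and in H4K16R (lower panel). HWT males lie above HWT females in most bins, with the widest gap of 0.065 in bin 2; both sexes dip in bin 21, at -0.178 in males and -0.152 in females.

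The size of the sex difference in the centred profiles also varied with how early a region replicates, most clearly on the autosomes. Windows were sorted into quintiles of the yw female profile, which enters neither side of the contrast. On the autosome arms the difference ran from -0.054 in the latest quintile through -0.0202, -0.0020 and 0.011 to 0.022 in the earliest. HWT males thus had the wider profile. Late autosomal regions stood at -0.145 in HWT males and -0.097 in HWT females, and the earliest quintile at 0.051 in HWT males and 0.029 in HWT females. On the X arm the same quintiles gave 0.013, 0.025, 0.036, 0.038 and 0.033, all above 0. The X arm therefore exceeded the autosome arms by 0.066 in the latest quintile, then by 0.045, 0.038 and 0.027, and by 0.011 in the earliest. Of the 210 lower windows on the autosome arms, 186 lay in the latest quintile, and of the 81 higher ones on the X arm 7 lay in the latest quintile and 28 in the one after it.

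**Figure D4:**
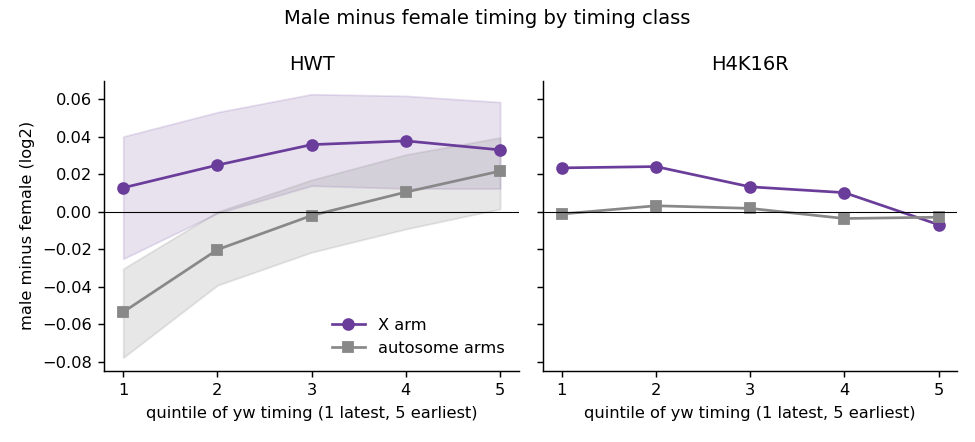
Median male minus female timing (log2) on the X arm and the autosome arms by quintile of the yw female profile, for HWT (left, shading is the interquartile range) and H4K16R (right). In HWT the autosome arms climb from -0.054 in the latest quintile to 0.022 in the earliest and the X arm stays between 0.013 and 0.038.

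The range of a profile differs between the deposited tables, and this was measured beside the contrast. The SD over autosome-arm windows was 0.084 in HWT males and 0.057 in HWT females (0.068 in their copy in the H3K9R table), a ratio of 1.47 for the table used here. It was 0.078 in H4K16R males, 0.0798 in H4K16R females, 0.076 in H3K9R females and 0.060 in yw females. The HWT profiles of males and females correlated at 0.904 over 9227 autosome-arm windows, which share each library, with a slope of 1.33. When HWT males were instead compared with a line fitted on HWT females over the autosome arms, which takes out this slope, the X arm stood 0.042 above the line and 22 of 22 bins were above 0. By quintile, from latest to earliest, the X arm then gave 0.053, 0.044, 0.047, 0.041 and 0.031, so its largest value moved to the latest quintile. The latest quintile of the autosome arms came to -0.016, against -0.054 in the centred profiles. The cause of the wider male profile was not tested.

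Pericentromeric heterochromatin was timed later in HWT males than in HWT females. The autosome blocks stood at -0.278 in HWT males and -0.184 in HWT females, with a median difference of -0.101, and 818 of their 1616 windows (50.6%) were lower by at least 0.1 while 0 were higher. The 3R block went furthest, at -0.521 in HWT males and -0.358 in HWT females (difference -0.154), and 312 of its 395 windows (79%) were lower. The 3L block differed by -0.092 with 208 of 490 windows lower, the 2R block by -0.082 with 247 of 580, and the 2L block by -0.079 with 51 of 151. All 18 bins of 1 Mb in the autosome blocks were below 0, from -0.175 to -0.014.

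Within 3R the first megabase next to the arm differed less than the deeper ones. It stood at -0.286 in HWT males and -0.192 in HWT females, a median difference of -0.095. The following bins differed by -0.170, -0.175 and -0.161, and in each of them HWT males lay below -0.5 and HWT females between -0.374 and -0.367. On 2R the order was less regular, with -0.014 and -0.027 in the outer bins and -0.119 and -0.144 in bin 3 and the innermost.

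These block values rest on the female profile and on the range of the profiles. With HWT females of the H3K9R table the autosome blocks differed by -0.074, and 16 of 18 bins were below 0. With yw females the median was -0.096 and 18 of 18 bins were below 0. Relative to the line fitted over the autosome arms the blocks were -0.032, and with the male profile scaled to the female SD they were -0.0057, both nearer to 0 than the -0.101 of the centred profiles.

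The block next to the X centromere had no stable direction. It stood at -0.194 in HWT males and -0.181 in HWT females, with a median difference of -0.034 and 28 of 130 windows (21.5%) lower. It was 0.0034 with HWT females of the H3K9R table, and 0.028 relative to the fitted line, on the side of the X arm.

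Chromosome 4 was later in HWT males over most of its length. Its windows stood at -0.035 in HWT males and 0.014 in HWT females, a median difference of -0.043, with 123 of 132 windows below 0 and 15 (11.4%) lower by at least 0.1. The difference was -0.055 and -0.074 in the stretches nearest the left end, -0.010 in the middle and -0.108 in the last one, and the median of window differences was below 0 in each of the 7 stretches. In the middle stretch the levels themselves lay the other way, at 0.0038 in HWT males and -0.018 in HWT females. The window of ci, a transcription factor of Hedgehog signalling at the left end of the chromosome, gave -0.055 in HWT males and 0.023 in HWT females. Against HWT females as deposited with H3K9R, 108 of 132 windows were below 0, and with yw females 113 of 131. Relative to the fitted line the chromosome stood at -0.045, about as far from 0 as in the centred profiles. H4K16R males minus H4K16R females had the same direction on chromosome 4, with a median difference of -0.022 and 113 of 132 windows below 0. Relative to a line fitted in H4K16R it stood at -0.019.

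The same sex contrast was smaller in H4K16R discs on the X arm, and in the blocks of the centred profiles. Its X arm stood at 0.0001 in H4K16R males and -0.015 in H4K16R females, with a median difference of 0.014 and 63.5% of windows above 0, and the X arm exceeded the autosome arms by 0.035 in HWT and by 0.014 in H4K16R. In H4K16R, 37 of 13293 windows (0.278%) were higher in males and 115 (0.865%) were lower, of which the X arm held 17 and 4. The autosome blocks differed by -0.101 in HWT and by -0.025 in H4K16R, and the 3R block by -0.154 in HWT and by -0.032 in H4K16R. Profile ranges also differ here, since the SD ratio of males to females was 1.47 in HWT and 0.981 in H4K16R. Relative to the line fitted in each genotype, the order of the blocks turned, with -0.032 in HWT and -0.042 in H4K16R for the autosome blocks and -0.042 in HWT and -0.067 in H4K16R for the 3R block, while the X arm stood at 0.042 in HWT and 0.013 in H4K16R. The lines were fitted over the autosome arms and extended to the later blocks. Their slopes, 1.33 in HWT and 0.908 in H4K16R, lie below the SD ratios, so the block values depend on the fit. The difference between both sex contrasts was not tested, because each is a single value per window.

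Window by window, the HWT sex difference was not correlated with that of H4K16R, on the X arm or on the autosome arms. The differences of both genotypes correlated at -0.016 over 2188 X arm windows and at -0.015 over the 219 that do not overlap, given as a description. On the autosome arms the values were 0.012 over 9227 windows and 0.018 over the 923 that do not overlap. Of all 13293 windows, 87 (0.654%) were higher by at least 0.1 in HWT and 37 (0.278%) in H4K16R, and 1 was higher in both. Lower windows numbered 1082 (8.14%) in HWT and 115 (0.865%) in H4K16R, and 84 were lower in both. Of the 115, 95 lay in the autosome blocks and 11 in the X block. In those blocks 50.6% and 21.5% of all windows were lower in HWT, so much of this overlap goes with location. A further 9 were past 0.1 in opposite directions. The 24 higher runs on the X arm were picked as extremes of the HWT contrast, so smaller values elsewhere follow in part from that choice. At its strongest window, 1 of the 24 was also past 0.1 in H4K16R. In H4K16R 14 of the 24 were above 0, with a median of 0.0058, beside 63.5% and 0.014 over all X arm windows. Against the copy of the same HWT females deposited with H3K9R, which is no independent check, 19 of the 24 were past 0.1. Against yw females, with the same male profile, 23 of 24 were above 0 and 7 past 0.1.

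The strongest runs were read at their peak window. The highest difference of all lay at X:11060001-11160000, where HWT males stood at 0.132 and HWT females at -0.048 (difference 0.180). Its 27 annotated genes include sev, a receptor tyrosine kinase needed for the R7 photoreceptor, Hsp60A, a mitochondrial chaperonin, Rpt3, a proteasome ATPase, Klp10A, a kinesin that shortens microtubules, and Ran, the GTPase of nuclear transport. The same window gave 0.025 in H4K16R males and 0.033 in H4K16R females (difference -0.0078), -0.075 in HWT females of the H3K9R table and -0.022 in yw females. HWT males were the earliest of all these profiles in this window.

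The window X:10560001-10660000 gave 0.051 in HWT males and -0.095 in HWT females (difference 0.146), against -0.036 in H4K16R males and -0.061 in H4K16R females. It holds Hmr, a heterochromatin protein known for hybrid incompatibility. The window X:1990001-2090000 gave 0.106 in HWT males and -0.028 in HWT females (difference 0.134), with 0.081 in H4K16R males and 0.037 in H4K16R females. Its genes include usp, the partner of the ecdysone receptor, and Actn, the muscle protein α-actinin. The strongest higher window outside the X was 3L:1290001-1390000, at 0.101 in HWT males and -0.024 in HWT females (difference 0.125), which holds Rac1, a small GTPase of the cytoskeleton, and Ctr9, a subunit of the Paf1 transcription complex. With the H3K9R-table copy of the same HWT females, which is no independent check, all 3 of these windows were above 0.1. Against yw females X:10560001-10660000 gave 0.105, while X:1990001-2090000 gave 0.058 and 3L:1290001-1390000 gave 0.077.

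A further run, at X:2790001-2890000, depends on 10 kb. It gave -0.084 in HWT males and -0.241 in HWT females (difference 0.158), and the next window, which starts 10 kb further on and shares all but that 10 kb with it, gave -0.152 in HWT males and -0.039 in HWT females (difference -0.113). The 10 kb left out hold w, the white gene at X:2790599-2796466, which encodes an eye pigment transporter. At the other end, the HWT female profile stood at -0.043 in the last window before those 10 kb and at -0.134 in the first window to include them, while HWT males stood at 0.010 and 0.0092. All 10 windows with the stretch were higher in HWT males, by 0.121 to 0.158.

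The step at w differed between genotypes. H3K9R females stood at -0.071 before it and -0.312 with it, then at -0.456 with it and -0.118 after it. H4K16R males stood at -0.063 and -0.062 across the first boundary and H4K16R females at -0.059 and -0.061, so neither showed the step. The yw profile, deposited in a smoothed form, ran from -0.0012 to 0.013 without one. The white gene is commonly used as a marker on transgenes. How many copies of it each stock or sex carried was not tested. Without these 10 windows the X arm median was 0.028 and 71 windows were higher by at least 0.1.

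**Figure D5:**
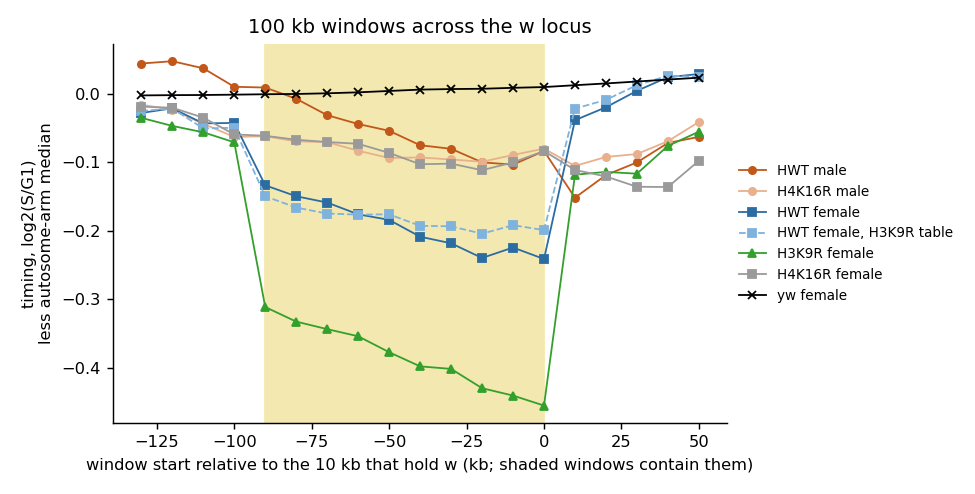
Timing, log2(S/G1) less the autosome-arm median, of 100 kb windows by their start relative to the 10 kb that hold w; shaded windows contain that stretch. HWT females and H3K9R females step down on entering the shaded windows and up on leaving them (-0.241 and -0.0385 in HWT females, -0.456 and -0.118 in H3K9R females), and H4K16R males and females show no such step.

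The strongest lower runs lay at the ends of chromosomes or of the arms. The lowest window of full length on the arms was X:21750001-21850000, at -0.396 in HWT males and -0.192 in HWT females (difference -0.204), which overlaps flam, a piRNA cluster that silences transposons in ovarian somatic cells. H4K16R males and females stood at -0.270 and -0.301 there. At the left end of the X, X:10001-110000 gave -0.276 in HWT males and -0.096 in HWT females (difference -0.179), and no RefSeq gene lies in it. The window 3R:4060001-4160000, which borders the pericentromeric block, gave -0.254 in HWT males and -0.0795 in HWT females (difference -0.174), and holds Gfat1, the entry enzyme of the hexosamine pathway. The other windows of this list are short ones at chromosome ends, 6.936 kb on 2R with a difference of -0.343 and 48.131 kb on chromosome 4 with a difference of -0.189, and such windows cover less DNA than the others. With HWT females of the H3K9R table these windows gave -0.174 on 2R and -0.073 on chromosome 4, and against yw females the chromosome 4 window gave -0.042.

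Genes of the dosage compensation machinery are spread over the genome, and the X-linked ones among them did not move alike. The window of roX2, an RNA of the MSL complex, gave 0.031 in HWT males and -0.027 in HWT females (difference 0.058). That of roX1 gave -0.022 in HWT males and 0.0061 in HWT females (difference -0.028), but yw females stood at -0.0585 there, below HWT males. The window of mof, which encodes the H4K16 acetyltransferase, gave 0.05 in HWT males and 0.045 in HWT females. On the autosomes, msl-1 differed by -0.0040, msl-2 by -0.0012, msl-3 by -0.053 and mle, the RNA helicase of the complex, by -0.031, the last from a window inside the 2R block. Sxl, which sets female identity and lies on the X, gave 0.035 in HWT males and -0.0067 in HWT females (difference 0.042). Its autosomal targets and their partners gave 0.016 at tra, 0.0050 at tra2, -0.029 at dsx and -0.011 at fru.

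Over all chosen loci, 13 of 15 windows on the X arm were above 0 with a median of 0.042, against 13 of 26 on the autosome arms with a median of -0.0002. Over all windows of these regions 77.1% and 43.7% were above 0, with medians of 0.029 and -0.0061, so the chosen loci lay near their background. The loci are also not all separate, since the windows of the neighbouring genes y, ac and sc on the X overlap, as do those of Orc1 and dpa on 2R. Among replication genes on the X, Mcm3, a subunit of the MCM helicase, gave 0.041 in HWT males and -0.038 in HWT females (difference 0.078). Mcm6 of the same complex gave 0.027 in HWT males and 0.039 in HWT females (difference -0.011), Cdc45 differed by 0.051 and Psf3 of the GINS complex by 0.0395. Among autosomal replication genes the range was from -0.045 at Mcm5 to 0.0785 at Orc1, a subunit of the origin recognition complex. The wing patterning genes on the X gave 0.055 at ct, 0.072 at sd, the DNA-binding partner of Vg, and 0.0030 at N, the Notch receptor. Autosomal ones ran from -0.065 at Ubx, which is repressed in most cells of the wing disc, to 0.064 at en, the selector of the posterior compartment. The window over the left part and left flank of the endogenous histone cluster on 2L gave -0.082 in HWT males and -0.023 in HWT females. Both sexes of HWT lack that cluster, so the value is not the timing of the native cluster. The copy of HWT females in the H3K9R table gave -0.079 in this window, close to HWT males. The yw females, labelled with no histone deletion, gave -0.069, but their value includes native copies that HWT lacks.

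Gene-rich parts of the X had the larger sex difference. Windows with 14 to 37 RefSeq genes stood at 0.039 in HWT males and -0.0019 in HWT females (median difference 0.043), those with 8 to 13 genes differed by 0.026, and those with 0 to 7 genes stood at -0.028 in HWT males and -0.046 in HWT females (median difference 0.016). The autosome arms showed the same order at a lower level, with 0.0012, -0.014 and -0.027. In H4K16R the order on the X was the opposite, 0.0069, 0.014 and 0.022 from gene-rich to gene-poor. The correlation of the HWT difference with the number of genes was 0.33 over 2188 overlapping X arm windows and 0.346 over the 219 that do not overlap. Gene-rich windows also replicate earlier, and the fitted line, which takes up part of that relation, left a correlation of 0.144.

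The timing difference was also set beside the RNA response to loss of H4K16 in males, a readout that the timing contrast does not use. In the authors' deposited table of males, 828 X arm entries were lower in H4K16R at an adjusted p under 0.05, and the timing windows around them had a median HWT male minus female difference of 0.045. Entries not called in the authors' deposited table, 1007 in number, had a median of 0.036, and the 22 entries called higher had 0.016. Counts and timing medians of autosomal entries were not set beside these, so they are not shown to be particular to the X. The interquartile ranges of the called and uncalled entries overlapped widely, from 0.019 to 0.068 and from 0.0092 to 0.065. Across windows with at least 3 entries of the authors' deposited table, the median fold change and the timing difference correlated at -0.140 over 1758 windows, and at -0.337 (Spearman -0.148) over 176 that do not overlap. The female fold change of the authors' deposited table gave a similar rank correlation, -0.126 over all windows with at least 3 entries for either sex, and -0.135 over those that do not overlap. Discs were pooled, so fewer cells of a type and less RNA per cell cannot be told apart in these values.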

How the data were processed

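Timing came from Repli-seq libraries of HWT males and HWT females (2 S-phase and 1 G1 library each), grouped by the sample titles; H4K16R, H3K9R and yw profiles served for comparison. Per the series' design text, timing is the S/G1 ratio. The authors deposited it as 1 value per group in 100 kb windows every 10 kb. The deposited values are a linear ratio in the female H4K16R table, of which log2 was taken here, and are centred near 0 in the others, where the base is unstated and log2 was assumed. The yw values, deposited as smoothed 10 kb bins, were averaged per window. The submitters' processing notes name Bowtie2 2.3.2, SAMtools 1.6, bedtools, limma, TopHat, Cufflinks 2.2.1 and edgeR and the build dm6, with no roles. How S-phase replicates were combined, and why the female HWT profile differs between tables, is not stated in what was used here; a wider or smoothed profile would change every difference.

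From the RNA tables of males and females, the authors' deposited log2 fold change and adjusted p-value (under 0.05) were used, read as H4K16R over HWT. Windows were joined on chromosome and start, centred and subtracted; 0.1 marked a shift. With 1 value per window, the per-library model planned was not run. Named loci are the 5 strongest runs per direction on the arms and fixed lists of dosage compensation, sex determination, replication and patterning genes, at RefSeq Release 6 positions. The windows, lists and comparisons were chosen with earlier results of these data known. The steps were tested on simulated male profiles, made from the observed female profile with added noise and a planted X difference. Error in the female values was not simulated, so its effect on the fitted line was not covered. Python 3.11.15, numpy 2.4.6, pandas 2.3.3 and matplotlib 3.10.9 were used.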

Additional observations from a re-analysis of the deposited data

Results flagged for a closer look

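In each of the following blocks at least 1 window differed between the sexes by at least 0.1, in opposite directions in HWT and H4K16R. The difference between both contrasts was not tested. Over all 13293 windows 9 did so, and neighbouring ones share reads. In the autosome blocks 50.6% of 1616 windows were lower in HWT by at least 0.1, and 9 were higher in H4K16R. In the X block 21.5% of 130 windows were lower in HWT and 5 were higher in H4K16R. In the 2R block, the window at 2R:3800001-3900000 stood at -0.258 in HWT males and -0.0574 in HWT females (difference -0.2005), and at -0.156 in H4K16R males and -0.274 in H4K16R females (difference 0.1175). In the 3L block, 3L:26540001-26640000 gave a difference of -0.154 in HWT and 0.102 in H4K16R. In the 3R block 4 windows did so, the strongest at 3R:2810001-2910000 with -0.184 in HWT and 0.101 in H4K16R. In the X block 3 windows did so, the strongest at X:22290001-22390000, with -0.438 in HWT males and -0.236 in HWT females (difference -0.2018), and with -0.239 in H4K16R males and -0.409 in H4K16R females (difference 0.1701).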

How the results depend on the processing

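The X arm excess over the autosome arms kept its sign in the 12 of 12 alternatives that can change it, since it cancels the centring, between 0.021 (female yw profile) and 0.041 (residual from the fitted line). Values were counted as moved where they changed by more than 0.021, the window SD between the deposited copies of the female HWT profile on the X arm. Shares were counted as moved where they changed by more than 1.5 times. That SD is a spread of single windows and not of regional medians, so values not listed here are not shown to be stable. The X arm excess of 0.035, at 0.021 against yw, did not count as moved. The X arm median was 0.0073 against yw. With linear ratios the excess in the latest quintile was 0.042 and the autosome blocks differed by -0.060. These are differences of ratios, in another unit than the log2 values they were compared with, so the change of unit enters both. The autosome blocks were -0.0057 after SD scaling, -0.032 from the fitted line, -0.0063 after quantile matching and -0.074 with the female HWT profile of the H3K9R table. The X block was 0.0305, 0.028, 0.032 and 0.0034 under the same 4 settings, a reversed sign, and -0.066 as a mean. The cause was not tested.

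Higher windows on the X arm made up 6.54% without centring, 6.26% centred on means, 1.97% after SD scaling, 9.37% from the line, 2.19% after quantile matching, 6.31% with the female profile of the H3K9R table, 1.97% with yw, 0.32% with linear ratios, 29.3% at a threshold of 0.05 and 0% at 0.2. Lower windows on the autosome arms made up, in that order, 1.34%, 1.41%, 0.0975%, 0.542%, 0.0975%, 1.01%, 3.59%, 0.0867%, 15.4% and 0.0325%. Lower windows in the autosome blocks made up 1.24% after SD scaling, 10.8% from the line, 1.36% after quantile matching, 9.47% with linear ratios and 5.75% at 0.2. The threshold of 0.1 was kept for linear ratios, where it is a stricter cut than 0.1 in log2. The window correlation of both genotypes' differences on the X was 0.096 with blocks 1 Mb smaller. At w the difference was -0.058 in the gene's window and -0.093 in the peak window against yw, reversed. Leaving out windows shorter than 100 kb or those that hold w, both chosen after seeing the data, moved none of the regional values. No paired analysis was possible because the files give 1 value per group and no value per library, and no replicate could be left out for the same reason.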
